A study of Mus musculus with 31 samples.

Results

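The 10 genes described here encode the proteins that carry arginine into the cell, split it, oxidise it or rebuild it, and that make polyamines from it and mark them for removal. They are the cationic amino acid transporters Slc7a1 and Slc7a2, the arginases Arg1 and Arg2, the inducible nitric oxide synthase Nos2, argininosuccinate synthase Ass1, and the polyamine genes Odc1, Srm, Sms and Sat1. They were chosen by symbol for their place in this pathway, and all 10 were found among the 24302 symbols of the deposited table. RNA had been sequenced from macrophages that thioglycollate had drawn into the peritoneal cavity of C57BL/6 mice aged 8.5 weeks. The injection held 3% thioglycollate, the cells were collected after 4 days, and they were cultured overnight before treatment. Both genotypes shared this background, age and elicitation: control mice, and mice labelled PPARgammaMPKO, a knockout (KO) of the nuclear receptor PPARγ in macrophages, with 4 mice of each. The part of Pparg that was deleted, the promoter that drove the deletion and the alleles of the control mice are not stated in the labels. Cells of each genotype stayed untreated or received DMSO as the vehicle for 24 h, or 1 uM rosiglitazone, a synthetic PPARγ ligand, or 20 ng/mL IL4, a cytokine of alternative macrophage activation. This gave 31 libraries in 8 groups, with 4 libraries in each of 7 groups and 3 in KO cells with rosiglitazone.

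Arginine stands at a branch point in macrophages. Arginase splits it into ornithine and urea, and ornithine then feeds polyamine and proline synthesis, while nitric oxide synthase oxidises arginine to nitric oxide and citrulline. In mouse macrophages, Arg1 is a classical gene of the response to IL4 through the transcription factor STAT6, and Nos2 is a classical gene of the response to interferon and bacterial products.

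Values are FPKM, that is fragments relative to the length of the gene and to the size of the library, and each library was rescaled here by its median ratio to the geometric mean over 10215 genes. The deposited sums ranged from 150719 to 305601, and the rescaling factors from 0.575 to 1.20. Without the rescaling, the median log2 difference of all genes was as far from 0 as -0.20 (KO against control, untreated) and 0.31 (KO minus control in the response to IL4). The labels and files give no read totals, but the spacing of the lowest values placed the depth of the libraries between 0.594 and 1.54 times that of control untreated library 1. The 9 macrophage markers summed to 1020 to 1412 FPKM in every library, of which Cd68 alone had 629 to 1090 FPKM. By the limma test described below, 1 of the 9 was higher and 2 were lower in KO cells under each treatment. There 3.53% to 11.7% of all genes passed. The IL4 markers Chil3 and Retnla rose by 9.62 and 5.64 on the log2 scale in control cells and by 8.79 and 6.40 in KO cells. Angptl4, a PPARγ target, rose by 3.14 with rosiglitazone in control cells. Of Angptl4, Plin2 and Fabp4, 3 rose with rosiglitazone in control cells and 0 in KO cells, where 4.46% and 0% of all genes passed. All 3 were lower in KO than in control cells under each treatment. Pparg itself had 45.2 ± 6.11 FPKM in KO and 49.6 ± 2.68 in control untreated cells (SD, n = 4), a level per gene that cannot show the loss of an exon. It was called higher in KO cells with rosiglitazone (0.35) and with IL4 (0.28), and neither was called in the values as deposited. In bulk RNA, fewer cells of a type and less RNA per cell cannot be told apart.

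IL4 raised Arg1 and Slc7a2 in both genotypes, while the related Arg2 and Slc7a1 did not pass the test in either. A fit that keeps the running library number as a block called Arg2 and Slc7a1 in control cells (limma adjusted p = 6.91e-05 and 0.00387). Not every pair of those control libraries correlated. Arg1 went from under 1.2 FPKM in untreated cells to between 51 and 141 FPKM, and Slc7a2 went from at most 2.20 to at least 15.4 FPKM. Among the polyamine genes the changes were far smaller. Ass1, which rebuilds arginine from citrulline, was higher in KO than in control cells under every treatment, and Nos2 exceeded 0.3 FPKM in the KO libraries with IL4 and in no other library. Each comparison was tested with limma on log2(rescaled FPKM + 1) over all 31 libraries, with p adjusted by Benjamini-Hochberg over the 10327 genes that had at least 1 FPKM in at least 3 libraries. Of the 10 genes, 8 passed that filter, while Arg2 and Nos2 reached 1 FPKM in only 2 libraries each and were tested in a fit of all 17699 genes without it. Differences below are on this log2 scale with their SE, which understates the change of low genes.

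Arg1 encodes the cytosolic arginase. In untreated control libraries 1 to 4 it had 0.340, 0.130, 0.127 and 0.665 FPKM, and in untreated KO libraries 0.590, 0.580, 1.18 and 0.294. With IL4 it had 77.0, 60.2, 61.0 and 141 FPKM in control libraries and 138, 129, 81.1 and 51.0 in KO libraries. Every IL4 library was above every other library, and the IL4 libraries of the genotypes overlapped over most of their range. The rise was 5.95 ± 0.28 in control cells (limma adjusted p = 2.05e-15), a 269-fold ratio of mean FPKM, and 5.84 ± 0.28 in KO cells (limma adjusted p = 5.39e-15), a 151-fold ratio. The larger ratio in control cells goes with their lower untreated mean, 0.316 ± 0.254 against 0.662 ± 0.374 FPKM (SD, n = 4), since the IL4 means were 84.8 ± 38.3 and 99.7 ± 40.9. The rise differed between the genotypes by -0.11 ± 0.40 (KO minus control, limma adjusted p = 1.00). Control library 4 had the highest Arg1 of its group in all 4 control groups, so the spread within groups was partly shared by number.

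Without IL4 the arginase stayed low. Under DMSO, Arg1 had 0.402, 0.259, 0.160 and 0.477 FPKM in control libraries and 1.85, 0.779, 1.17 and 0.514 in KO libraries. These groups did not overlap, but the difference of 0.62 ± 0.28 did not pass the test (limma adjusted p = 0.302). With rosiglitazone the control libraries had 0.623, 0.542, 0.238 and 1.73 FPKM and the 3 KO libraries 0.427, 0.912 and 0.571, which overlap. Rosiglitazone against DMSO gave 0.37 ± 0.28 in control cells (limma adjusted p = 0.645) and -0.31 ± 0.30 in KO cells (limma adjusted p = 1.00).

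Slc7a2 encodes the transporter CAT2, which brings arginine, lysine and ornithine across the plasma membrane. Untreated control libraries had 1.65, 1.40, 1.28 and 1.63 FPKM and untreated KO libraries 1.12, 0.937, 2.20 and 1.36. With IL4 the control libraries had 17.6, 24.0, 21.8 and 22.3 FPKM and the KO libraries 20.2, 15.4, 25.7 and 19.6. As for Arg1, all IL4 libraries lay above all others, while the genotypes overlapped. The rise was 3.17 ± 0.14 in control cells (limma adjusted p = 3.22e-16) and 3.15 ± 0.14 in KO cells (limma adjusted p = 4.70e-16), each a 14.4-fold ratio of mean FPKM. The rises differed by -0.02 ± 0.19 (limma adjusted p = 1.00). In the other 6 groups Slc7a2 kept to 0.937 to 2.20 FPKM.

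**Figure D1:**
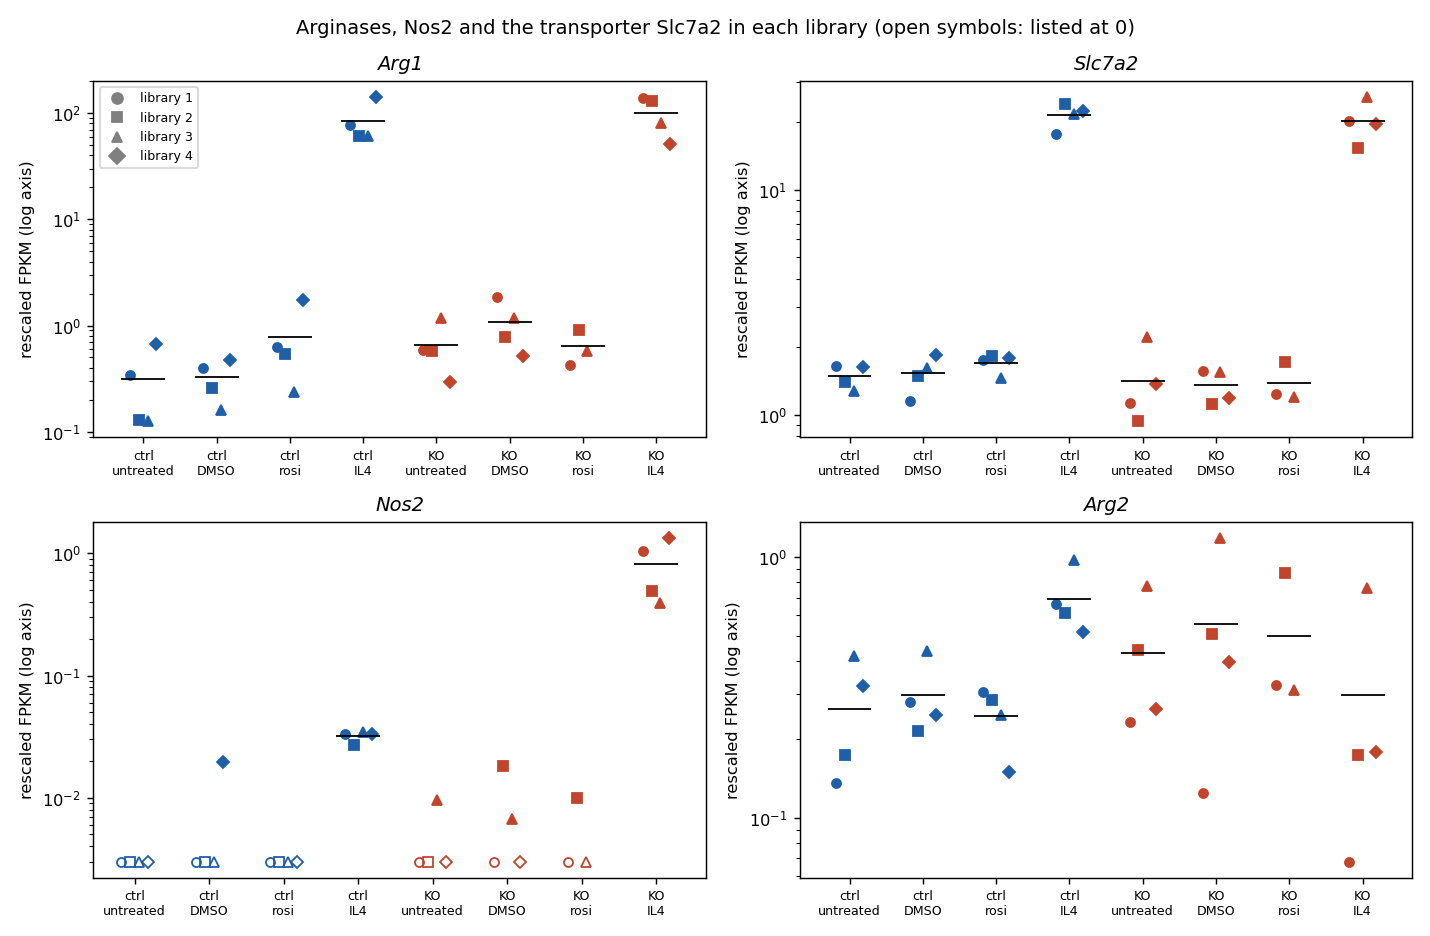
Rescaled FPKM of Arg1, Slc7a2, Nos2 and Arg2 in each library, on log axes, by genotype and treatment; symbols give the library number in the title, black lines the group means, and open symbols at the foot of the Nos2 panel libraries listed at 0. Arg1 and Slc7a2 are high in all 8 IL4 libraries, whereas Nos2 is above 0.3 FPKM in the 4 KO libraries with IL4 and below 0.04 elsewhere.

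Slc7a1 encodes CAT1, the transporter of the same family that most cell types use for arginine. It had 0.668, 0.564, 0.621 and 0.706 FPKM in untreated control libraries and 1.07, 1.25, 0.931 and 1.08 with IL4, with no overlap. That rise of 0.34 ± 0.14 did not pass (limma adjusted p = 0.0889). It passed with only the groups compared in the fit (limma adjusted p = 0.00676) and when 1 KO library, untreated 3, was left out of the shared estimate of spread (0.04). In KO cells the untreated libraries, with 0.744, 0.903, 1.74 and 0.557 FPKM, covered the IL4 libraries, with 1.02, 1.08, 1.40 and 0.752, and the difference was 0.08 ± 0.14 (limma adjusted p = 0.776). Rosiglitazone libraries of control cells, at 0.781 to 1.22 FPKM, lay above the DMSO libraries, at 0.635 to 0.728, without passing (0.23 ± 0.14, limma adjusted p = 0.541). Per length of gene, the level of Slc7a2 with IL4 was 15.4 FPKM or more in every library, against at most 1.40 FPKM for Slc7a1.

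Arg2, the mitochondrial arginase, was low in all groups, at 0.0681 to 1.18 FPKM. In control cells it had 0.136, 0.174, 0.418 and 0.320 FPKM untreated and 0.658, 0.608, 0.971 and 0.515 with IL4. In KO cells it had 0.233, 0.439, 0.778 and 0.262 FPKM untreated and 0.0681, 0.174, 0.764 and 0.178 with IL4. By library number, rescaled Arg2 was higher with IL4 in 4 of 4 control pairs and in 0 of 4 KO pairs. In the values as deposited, KO number 3 was higher with IL4, at 0.775 against 0.590 FPKM. Neither response passed: 0.42 ± 0.16 in control cells (limma adjusted p = 0.104) and -0.15 ± 0.16 in KO cells (limma adjusted p = 0.663), although the control response passed with only the groups compared in the fit (limma adjusted p = 0.0363). The difference between the responses, -0.57 ± 0.23, did not pass either (limma adjusted p = 0.769), nor did KO against control cells with IL4 (-0.40 ± 0.16, limma adjusted p = 0.161), which passed without KO IL4 library 3 (limma adjusted p = 0.0286). The libraries numbered 3 had the highest Arg2 in 3 of 4 control groups and in 4 of 4 KO groups. This takes KO rosiglitazone libraries 1 to 3 as numbers 2 to 4 by their running numbers, so that library 2 is number 3 there.

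**Figure D2:**
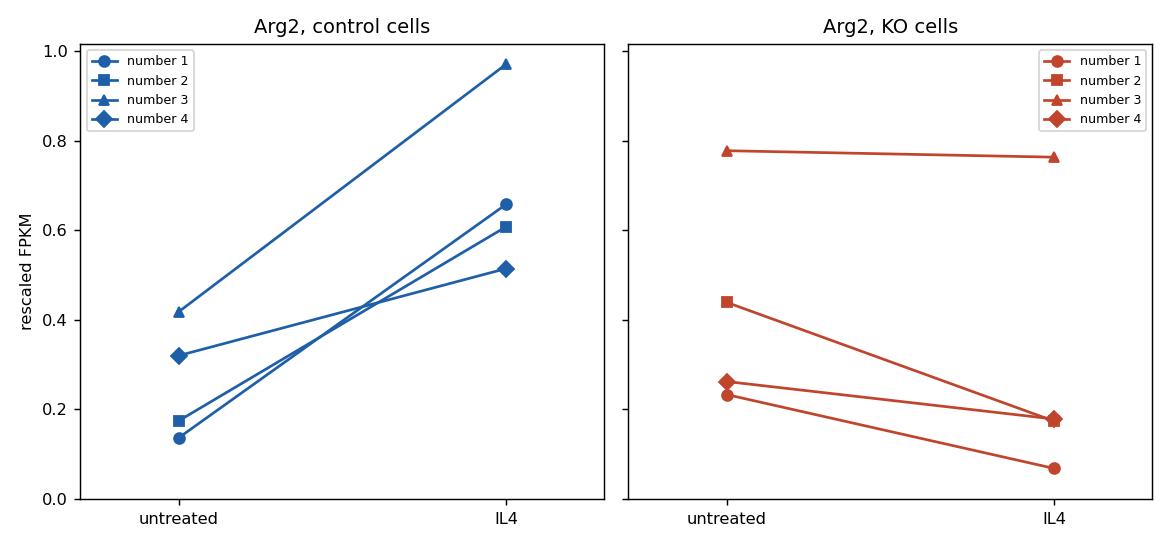
Rescaled FPKM of Arg2 without treatment and with IL4, with lines joining libraries of the same number, in control cells (left) and KO cells (right). All 4 control lines go up and all 4 KO lines go down, the one of number 3 by the least, from 0.778 to 0.764 FPKM.

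Nos2 was near the floor of the data in 7 groups and clearly detected in 1. It was listed at 0 in all 4 untreated and all 4 rosiglitazone libraries of control cells and in 18 of the 31 libraries in all. The highest value outside IL4 was 0.0196 FPKM, in control DMSO library 4. With IL4, control libraries 1 to 4 had 0.0334, 0.0270, 0.0345 and 0.0332 FPKM, and KO libraries had 1.04, 0.494, 0.394 and 1.34. The genotypes with IL4 thus lay far apart, with a ratio of mean FPKM of 25.5. Multiplied by each library's relative depth, all deposited Nos2 values were whole multiples of 1 step, within 0.02 of a step, as values made from whole counts would be. In those steps the control IL4 libraries had 6, 2, 6 and 4, the KO IL4 libraries 129, 56, 48 and 190, and no other library more than 2. If 1 step is 1 fragment, the control values rest on at most 6 fragments each and the KO values on 48 to 190.

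KO exceeded control cells with IL4 by 0.78 ± 0.09 for Nos2 (limma adjusted p = 5.44e-07), in a comparison where 7.53% of the 17699 genes passed. IL4 against untreated cells gave 0.82 ± 0.09 in KO (limma adjusted p = 1.67e-07; 12.8% of genes passed) and 0.05 ± 0.09 in control cells (limma adjusted p = 0.912; 13.4% passed). The difference between the responses was 0.78 ± 0.12 (limma adjusted p = 0.000835; 0.554% passed), and with a pseudocount of 0.1 in place of 1 it was 2.62 ± 0.27 (limma adjusted p = 1.54e-06). With only the groups compared in the fit, the control difference of 0.05 was called (limma adjusted p = 8.78e-05). The difference between the responses was then not called (limma adjusted p = 0.112). Even at its highest, 1.34 FPKM in KO IL4 library 4, Nos2 was far below Arg1, which had 51.0 FPKM in that library. The other nitric oxide synthase genes Nos1 and Nos3 did not pass the filter. Gch1, the first enzyme of the synthesis of the cofactor tetrahydrobiopterin, was higher in KO than in control cells with rosiglitazone (0.45 ± 0.12, limma adjusted p = 0.0139, and 0.126 without KO library 3). Qdpr, which recycles that cofactor, was lower in KO cells with rosiglitazone (-0.62 ± 0.11, limma adjusted p = 0.000249) and with IL4 (-0.52 ± 0.10, limma adjusted p = 0.00077). As deposited, neither Gch1 (limma adjusted p = 0.335) nor Qdpr (0.131 with rosiglitazone and 0.438 with IL4) was called.

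Some markers of other cells differed with genotype. The 11 mesothelial and fibroblast markers summed to 2.56 to 42.6 FPKM in control and 21.5 to 146 FPKM in KO libraries, and none of them was at 0 throughout. Of the 10 that were tested, 2 were higher in KO cells with IL4 and 0 under each of the other treatments, where 5.06% of all genes were higher with IL4 and 1.76%, 1.34% and 5.05% untreated, under DMSO and with rosiglitazone. With IL4 the sums were 4.17 to 38.1 FPKM in control and 36.7 to 146 in KO libraries. KO IL4 library 4 had the lowest of these KO sums, 36.7, and the highest Nos2, and KO IL4 library 2 had 146 with 0.494 FPKM of Nos2. Control IL4 library 1 had a sum of 38.1 with 0.0334 FPKM of Nos2. Resident peritoneal macrophage markers summed to at most 3.84 FPKM in control and 3.76 to 7.02 in KO libraries. Of the 3 tested, 1 was higher in KO cells under each of the 4 treatments, with IL4 Serpinb2. None of the 5 dendritic cell markers passed the filter. With IL4 they summed to 0.540 to 0.987 FPKM in control libraries and to 2.33, 1.83, 1.15 and 2.22 in KO libraries 1 to 4. KO libraries 1 and 4 had the higher sums and also more Nos2. Untreated, the sums were 0.170 to 0.660 FPKM in control and 0.608 to 1.05 in KO libraries. Eosinophil markers with IL4 summed to 28.7 to 57.3 FPKM in control and 8.26 to 18.5 in KO libraries, and of the 3 tested Ear1 and Ear2 were lower and Siglecf was higher in KO cells. Ear2 alone reached 48.6 FPKM at its highest over all libraries, while Epx and Prg2 were at 0 in all IL4 libraries. In control cells the eosinophil sum was 6.31 to 9.43 FPKM untreated and 15.1 to 23.1 with rosiglitazone. Neutrophil markers with IL4 summed to 17.1 to 27.3 FPKM in control and 14.5 to 27.2 in KO libraries. The part of these cell types in the Ass1 and Nos2 differences was not tested beyond these values. Of the 2 neutrophil markers tested, S100a8 was lower in KO cells with IL4, at 6.56 against 16.7 mean FPKM, and Csf3r was higher, at 11.5 against 5.73, while S100a9, Camp, Ngp and Retnlg were at 0 in all IL4 libraries.

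**Figure D3:**
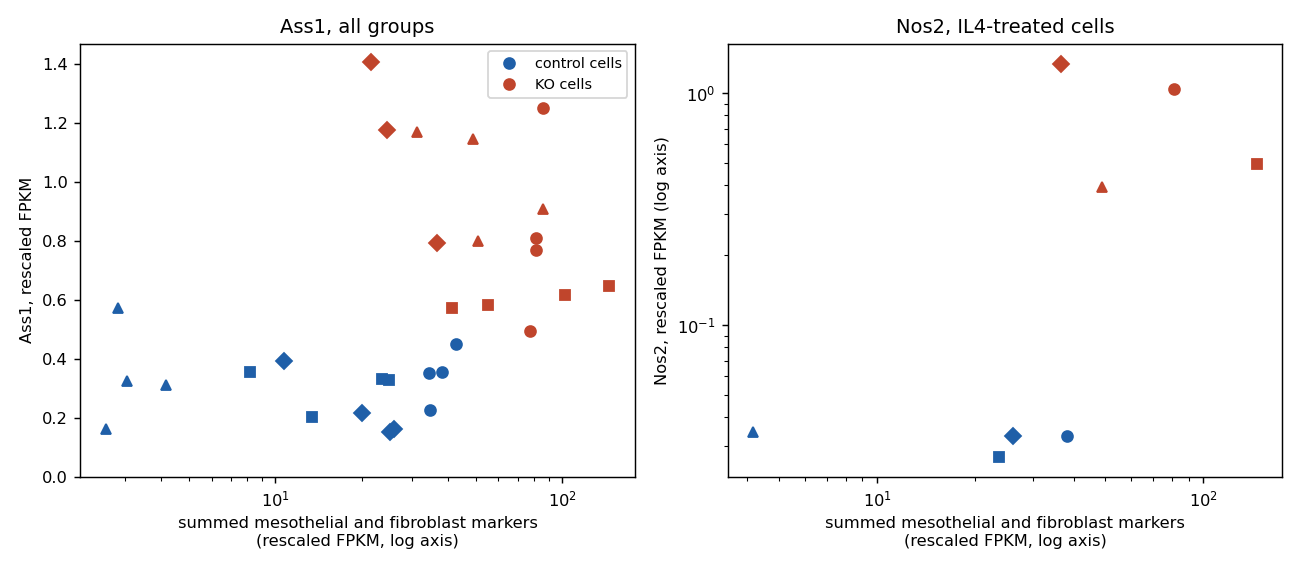
Summed rescaled FPKM of the mesothelial and fibroblast markers (horizontal axis, log scale) against the rescaled FPKM of Ass1 in all libraries (left) and of Nos2, on a log axis, in the IL4 libraries (right). Each point is 1 library, control in blue and KO in red, with circles, squares, triangles and diamonds for numbers 1 to 4; the control library with a sum of 38.1 FPKM and the KO library with 36.7 FPKM had 0.0334 and 1.34 FPKM of Nos2.

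Ass1 joins citrulline and aspartate on the way back to arginine. Untreated control libraries had 0.450, 0.353, 0.573 and 0.394 FPKM, and KO libraries 1.25, 0.572, 0.909 and 1.41. These ranges touched at one library, as KO library 2, the lowest, fell just below control library 3. Under DMSO the control libraries had 0.350, 0.328, 0.326 and 0.216 FPKM and the KO libraries 0.811, 0.618, 0.801 and 1.18, with no overlap. With rosiglitazone the control libraries had 0.226, 0.201, 0.162 and 0.152 FPKM and the 3 KO libraries 0.493, 0.583 and 1.17. With IL4 the control libraries had 0.354, 0.330, 0.309 and 0.163 FPKM and the KO libraries 0.769, 0.647, 1.15 and 0.792. In these 3 treatments every KO library was above every control library. In steps of the low values, found as for Nos2, Ass1 had 6 to 30 in control and 12 to 96 in KO libraries, so the levels are low but rest on more than a few fragments if 1 step is 1 fragment.

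Ass1 was higher in KO cells by 0.48 ± 0.12 untreated (limma adjusted p = 0.0161), 0.50 ± 0.12 under DMSO (0.0128), 0.54 ± 0.13 with rosiglitazone (0.0043) and 0.51 ± 0.12 with IL4 (0.00411). Ass1 passed the filter through 5 libraries, and all 5 were KO libraries, so it entered the fit through the group in which it is high. Without the filter the differences were 0.48, 0.50, 0.54 and 0.51 and the limma adjusted p 0.0198, 0.0172, 0.00563 and 0.00494. None of the other 7 filtered genes passed in these 4 comparisons, in which 4.34%, 3.53%, 11.7% and 10.8% of all genes passed and 1.76%, 1.34%, 5.05% and 5.06% were higher in KO cells. The untreated call was lost without control library 2 or without KO library 1 or 4 (limma adjusted p = 0.065 to 0.0668), the DMSO call without library 4 of either genotype (0.0502 and 0.0591) and the rosiglitazone call without KO library 3 (0.0696). The untreated and DMSO calls were also lost in the values as deposited (0.236 and 0.0535), where the differences were 0.41 and 0.57, and the untreated call with only the groups compared in the fit (0.146). The IL4 call held without any 1 library. Ass1 had no called response to IL4 or rosiglitazone in either genotype. KO library 4 untreated had the highest Ass1, 1.41 FPKM, and the lowest mesothelial and fibroblast sum of the KO libraries, 21.5 FPKM. Among control libraries, number 1 had the highest such sum in every group, at 34.4 to 42.6 FPKM. It also had the highest Ass1 in 3 of the 4 control groups. The part of these cells in the Ass1 difference was not tested. The region upstream of Ass1 is shown because Ass1 was the member that differed by genotype throughout. It is the 250 bases before the gene start in RefSeq, build GRCm38.p6, on the plus strand at chr2:31470020-31470269, and the capitals mark the one E-box, CACGTG, the palindrome bound by factors of the MYC and USF families. It starts 36 bases before the gene start.
Ass1: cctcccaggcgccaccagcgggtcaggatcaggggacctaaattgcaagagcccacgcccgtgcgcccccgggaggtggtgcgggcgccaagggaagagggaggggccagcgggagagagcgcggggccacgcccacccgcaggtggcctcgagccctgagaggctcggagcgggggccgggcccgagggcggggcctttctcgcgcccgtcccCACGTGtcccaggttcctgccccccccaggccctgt

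Both strands were searched for CACGTG, for TTC and GAA with any 4 bases between them, the form that STAT6 binds, and for 2 copies of AGGTCA with any 1 base between them, the direct repeat of PPARγ and its partner RXR. No matches overlapped in these genes. They occur in 6.02%, 5.85% and 0.033% of 32851 such regions. A match is a description of the letters and not a binding site. RefSeq entries were matched for 5 of the 10 genes, Ass1, Odc1, Sat1, Slc7a1 and Sms, and Sms had an E-box in 1 of its 2 entries, starting at 196 bases before the start.

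Polyamine synthesis starts with Odc1, ornithine decarboxylase, which makes putrescine. Untreated control libraries had 6.38, 6.07, 5.08 and 5.85 FPKM and IL4 libraries 7.10, 6.96, 7.31 and 6.80. In KO cells the untreated libraries had 6.57, 6.11, 5.05 and 6.20 FPKM and the IL4 libraries 7.90, 8.53, 6.33 and 6.93. The control groups did not overlap and the KO groups did, yet only the KO rise passed, at 0.27 ± 0.09 (limma adjusted p = 0.0357) against 0.24 ± 0.09 in control cells (limma adjusted p = 0.0614). The rises differed by 0.03 ± 0.13 (limma adjusted p = 1.00). The KO call was lost without KO untreated library 2 or 3 or KO IL4 library 1 or 2 (limma adjusted p = 0.0572 to 0.156), without the 3 libraries of low sum (0.312) and with upper quartile scaling (0.0756), while with only the groups compared in the fit the control rise passed (0.0249) and the KO rise did not (0.161). Under DMSO, all 4 KO libraries, at 5.44 FPKM or more, were above the control libraries, at 5.01 to 5.44, and this did not pass (0.22 ± 0.09, limma adjusted p = 0.235).

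Srm, spermidine synthase, responded more than the other polyamine genes. It had 7.28, 6.59, 4.93 and 5.52 FPKM in untreated control libraries and 11.6, 10.5, 9.97 and 11.0 with IL4. In KO cells it had 8.51, 7.85, 6.76 and 6.41 FPKM untreated and 11.6, 12.8, 8.12 and 10.2 with IL4. The control groups were apart, while KO IL4 library 3 fell among the untreated KO libraries. The rise was 0.74 ± 0.13 in control cells (limma adjusted p = 0.000103) and 0.47 ± 0.13 in KO cells (limma adjusted p = 0.0110), and the rises differed by -0.28 ± 0.19 (limma adjusted p = 1.00). The KO rise did not pass without KO IL4 library 2 (limma adjusted p = 0.0586) or the libraries of low sum (0.0727), or with only the groups compared in the fit (0.0634).

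Sms, spermine synthase, adds the last aminopropyl group. KO cells with IL4 had 5.29, 5.46, 5.58 and 5.82 FPKM, above the 4.66 to 5.02 of untreated KO libraries and the 4.13 to 5.15 of control IL4 libraries. Its mean was the highest of the 8 groups, and it overlapped 1 of them, KO cells with rosiglitazone, whose library 3 had 5.33 FPKM. Neither difference passed: 0.15 ± 0.08 for IL4 in KO cells (limma adjusted p = 0.189) and 0.20 ± 0.08 for KO against control cells with IL4 (limma adjusted p = 0.107). With rosiglitazone, KO exceeded control cells by 0.24 ± 0.08 (limma adjusted p = 0.0647), which passed when KO library 1 or control library 3 of that treatment was left out (limma adjusted p = 0.0263 and 0.0219). Control cells had no rise with IL4 (-0.04 ± 0.08, limma adjusted p = 0.799).

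Sat1 acetylates spermidine and spermine, which marks them for export or oxidation, and was the most abundant of the 10 genes per length in every library, at 94.4 FPKM or more. Control libraries had 145, 149, 138 and 156 FPKM untreated and 197, 187, 198 and 239 with IL4. KO libraries had 147, 137, 94.4 and 150 FPKM untreated and 184, 168, 122 and 187 with IL4. The control groups were apart and the KO groups overlapped through library 3, which was the lowest in both. The control rise of 0.47 ± 0.15 passed (limma adjusted p = 0.0198), the KO rise of 0.33 ± 0.15 did not (limma adjusted p = 0.128), and the 2 rises differed by -0.15 ± 0.21 (limma adjusted p = 1.00). The control call was lost without control untreated library 3 (limma adjusted p = 0.0563) or control IL4 library 4 (0.0785) and in the values as deposited (0.533), and the KO rise passed without KO IL4 library 3 (0.0223). KO libraries with the same number deviated together, and a fit that keeps the number as a block called 2 further rises in KO cells, Sat1 at 0.33 ± 0.07 (limma adjusted p = 0.00124) and Sms at 0.15 ± 0.06 (limma adjusted p = 0.0398). Sat1 and Sms are X-linked, and 8 libraries, those numbered 1 in control cells and 2 in KO cells and the first of KO rosiglitazone, had 16.3 to 20.5 FPKM of the Y-linked Ddx3y. Without these libraries the control rise of Sat1 was 0.48 ± 0.20 and did not pass (limma adjusted p = 0.114).

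The upstream regions of the first polyamine enzyme, Odc1, and of Sat1 are shown as the entry and exit of polyamine metabolism, each 250 bases before the RefSeq start in GRCm38.p6, at chr12:17544623-17544872 on the plus strand and chrX:155216450-155216699 on the minus strand. None of the motifs searched was found in either, so there are no capitals, and this says only that these letters are not in these windows.
Odc1: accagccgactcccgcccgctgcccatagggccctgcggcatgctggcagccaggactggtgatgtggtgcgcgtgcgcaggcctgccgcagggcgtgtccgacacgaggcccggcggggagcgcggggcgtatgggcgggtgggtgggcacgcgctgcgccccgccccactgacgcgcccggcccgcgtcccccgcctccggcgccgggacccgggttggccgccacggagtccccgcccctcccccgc
Sat1: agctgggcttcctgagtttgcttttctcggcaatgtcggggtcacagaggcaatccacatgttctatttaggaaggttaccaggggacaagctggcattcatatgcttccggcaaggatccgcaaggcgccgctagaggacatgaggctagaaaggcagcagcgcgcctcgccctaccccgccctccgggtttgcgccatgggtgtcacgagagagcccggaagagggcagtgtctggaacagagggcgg

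**Figure D4:**
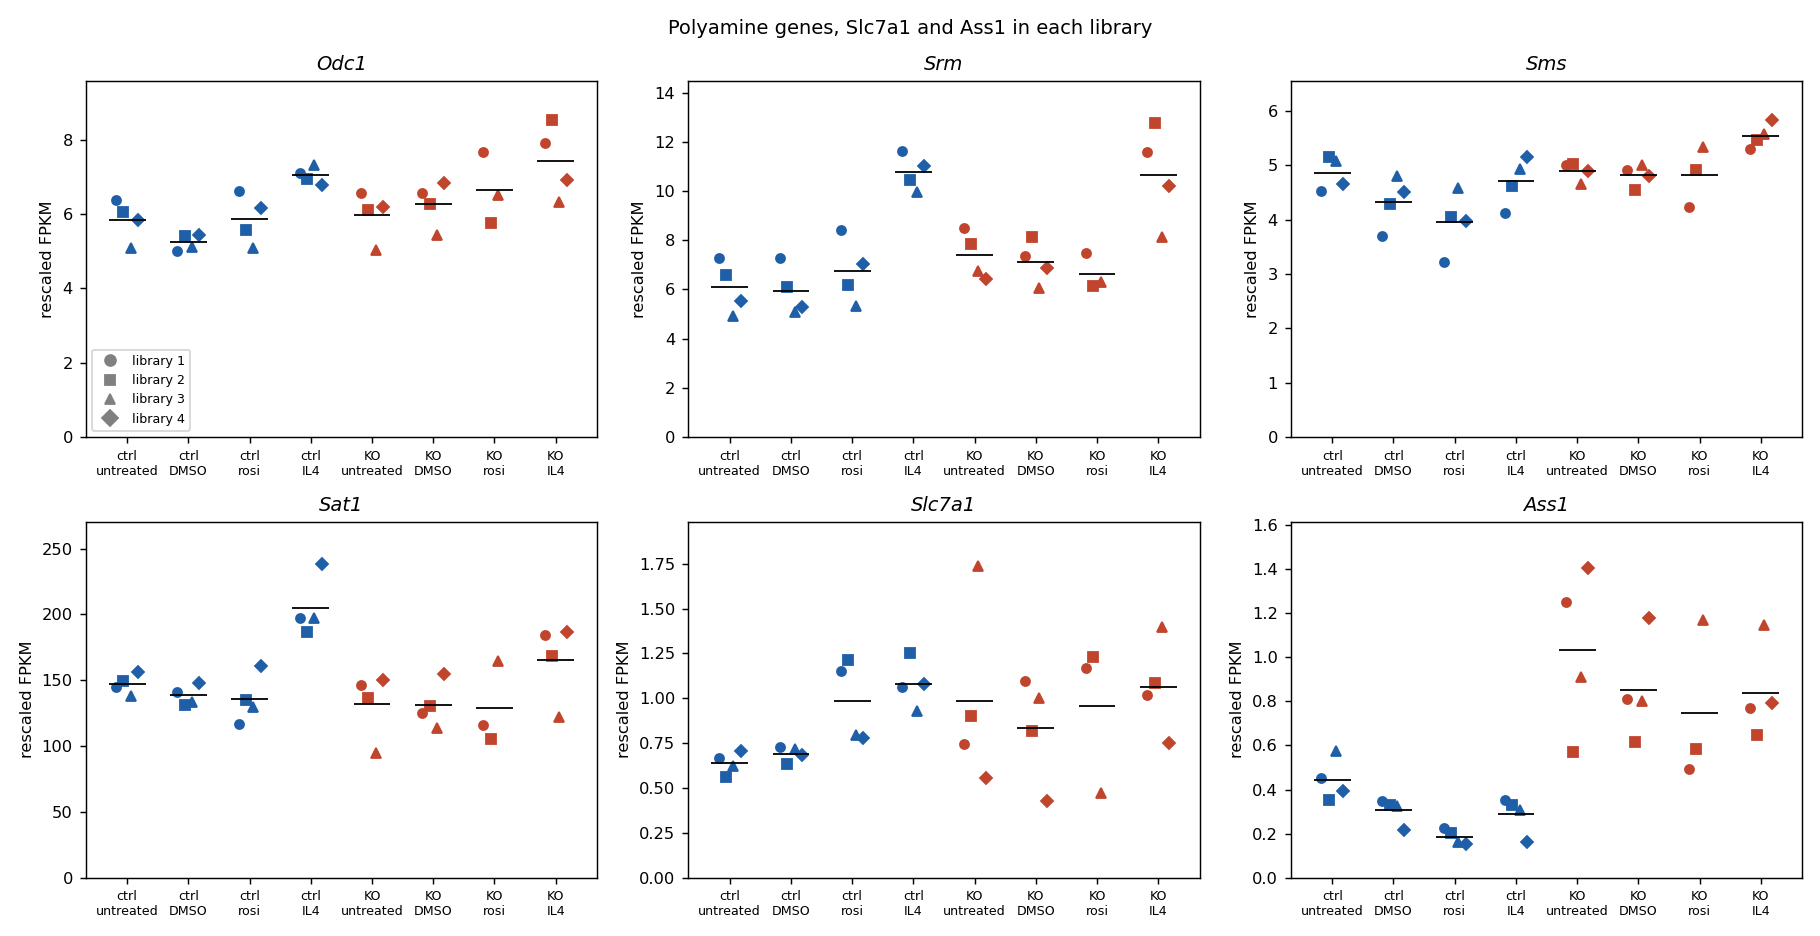
Rescaled FPKM of Odc1, Srm, Sms, Sat1, Slc7a1 and Ass1 in each library, on axes from 0, by genotype (blue, control; red, KO) and treatment; symbols give the library number in the title and black lines the group means. Srm has its highest means with IL4, at 10.8 and 10.7 FPKM, and Ass1 is higher in KO than in control cells under each treatment.

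By count, 4 of the 8 filtered genes rose with IL4 in each genotype and 0 fell, where 23% and 19.5% of all genes passed and 11.9% and 10.1% rose. In control cells these were Arg1, Slc7a2, Srm and Sat1, and in KO cells Arg1, Slc7a2, Srm and Odc1. The median difference of the 8 was 0.41 and 0.30, against a median near 0 of all genes. Rosiglitazone against DMSO changed 0 of them in either genotype by limma, where 4.46% of all genes passed in control and 0% in KO cells, and 0 of the 8 had an unadjusted p under 0.05. DMSO against untreated cells changed 0 of them, with 0% of all genes called and 0 members at an unadjusted p under 0.05 in each genotype. The responses of the genotypes to IL4 and to rosiglitazone differed in 0 of the 8, where 0.697% and 0.804% of all genes passed, and in both 0 had an unadjusted p under 0.05. Comparisons against the same untreated or DMSO libraries share those libraries, so their values are not independent.

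**Figure D5:**
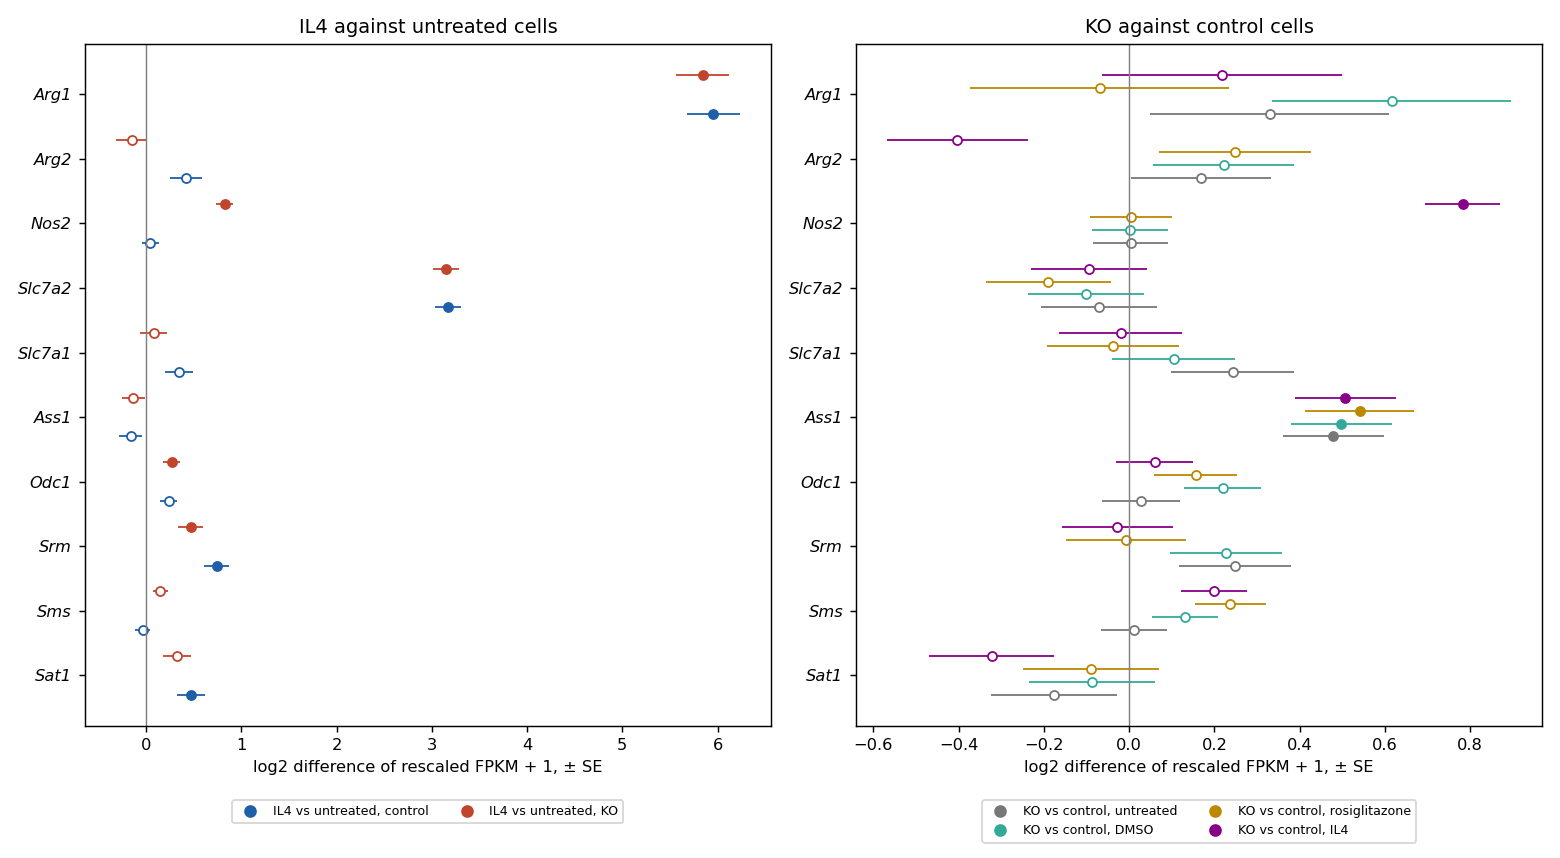
Log2 differences of rescaled FPKM + 1 with SE for the 10 genes, IL4 against untreated cells (left) and KO against control cells under each treatment (right); filled points have an adjusted p under 0.05, and Arg2 and Nos2 come from the fit without the filter. Arg1 and Slc7a2 stand far to the right for IL4 in both genotypes, and Ass1 is filled in all 4 genotype comparisons.

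Other genes of the pathway were read from lists by role. Of 68 in the table, 50 were tested. With IL4, 12 rose and 6 fell in control cells and 13 rose and 5 fell in KO cells, where 23% and 19.5% of all genes passed and 11.9% and 10.1% rose, and their median differences were 0.07 and 0.08. KO against control cells gave 3 higher and 0 lower untreated, 3 and 1 under DMSO, 8 and 2 with rosiglitazone, and 4 and 4 with IL4, where 4.34%, 3.53%, 11.7% and 10.8% of all genes passed. Of the 64 calls over all comparisons, 43 were not called in the values as deposited and 27 were lost without at least 1 library, among them Aldh18a1, Pycrl and Oat on the way to proline. The 43 include the Azin1, Mat2a and Paox calls given below.

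The steepest rises among them were on the branch to creatine. Gatm, which moves the amidino group of arginine to glycine, rose from 6.38 to 37.9 mean FPKM in control cells (2.40 ± 0.15, limma adjusted p = 1.01e-12) and from 10.2 to 31.0 in KO cells (1.51 ± 0.15, limma adjusted p = 1.48e-08). Its response differed between genotypes by -0.89 ± 0.21 (limma adjusted p = 0.0429), the 1 call of these 50 genes in that comparison, and this was lost without any one of 17 libraries (limma adjusted p = 0.0518 to 0.12) and in the values as deposited. KO cells had more Gatm than control cells under DMSO (0.70 ± 0.15) and with rosiglitazone (1.00 ± 0.16). Untreated KO cells, at 10.2 against 6.38 mean FPKM, were also called higher. That call was lost without any one of 4 libraries (limma adjusted p = 0.0573 to 0.0888) and in the values as deposited (0.406). Gamt, the next enzyme to creatine, rose by 0.83 ± 0.13 and 0.62 ± 0.13 with IL4. Padi2, which converts arginine residues in proteins to citrulline, fell by 0.76 and 0.77 in control and KO cells.

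The hypusine branch uses spermidine to modify the translation factor eIF5A. Eif5a rose with IL4 from 97.3 to 164 mean FPKM in control cells (0.74 ± 0.09, limma adjusted p = 1.67e-07) and from 82.9 to 115 in KO cells (0.47 ± 0.09, limma adjusted p = 0.000158). It was lower in KO than in control cells with IL4 (-0.51 ± 0.09, limma adjusted p = 0.000106) and with rosiglitazone (-0.36 ± 0.09, limma adjusted p = 0.00906; 0.0519 and 0.0596 without KO library 1 or 2), and rosiglitazone raised it in control cells (0.40 ± 0.09, limma adjusted p = 0.00398). In the values as deposited, the Eif5a rise with IL4 in control cells was not called (limma adjusted p = 0.109). Nor was its genotype difference with IL4 (limma adjusted p = 0.599), nor its calls with rosiglitazone. Dhps, which makes the hypusine, rose in KO cells (0.49 ± 0.12). Of the genes that regulate or supply polyamine synthesis, the antizyme inhibitor Azin1 fell by 0.32 and 0.31 in control and KO cells, and Mat2a, which makes S-adenosylmethionine, rose by 0.37 in control cells. Of the oxidases, Smox, which acts on spermine, was higher in KO than in control cells with IL4 (0.68 ± 0.17), and Paox rose by 0.27 and 0.26 with IL4. Cav1, a caveolar protein listed with polyamine uptake, was 1.35 to 1.65 higher in KO cells under all 4 treatments, beside the higher mesothelial and fibroblast sums given above.

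Among other transporters, Slc7a7, which with Slc3a2 exports arginine in exchange for neutral amino acids, was lower in KO than in control cells with IL4, at 4.10 against 6.10 mean FPKM (-0.48 ± 0.08, limma adjusted p = 6.46e-05). In the values as deposited this difference was -0.37 and was not called (limma adjusted p = 0.34). Slc7a5, the large neutral amino acid transporter, rose with IL4 in control cells (0.62 ± 0.13).

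The genes most like each of 4 members were taken by Pearson r over the 31 libraries in log2(rescaled FPKM + 1), as a description; the points share genotypes, treatments and library scale. For Arg1 they were Pdia4 (0.987), Cish (0.986), Tmem26 (0.986), Ocstamp (0.983) and Inpp5a (0.982). For Slc7a2 they were Pdcd1lg2 (0.988), Chil4 (0.987), Tmem26 (0.986), Ocstamp (0.985) and Il31ra (0.984). Tmem26 and Ocstamp stand in both lists. For Nos2 they were Ccl24 (0.953), Il4i1 (0.923), Vhl (0.914), Tppp3 (0.913) and Car2 (0.909), and for Odc1, whose changes were small, the highest was Stip1 (0.873).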

How the data were processed

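RNA-seq of 31 mouse macrophage libraries was analysed from the FPKM table that the authors deposited. The submitters' processing notes name TopHat2, featureCounts, edgeR and the build mm9, with no versions and without saying which made the FPKM; the protocol in the labels gives a stranded total RNA kit. Gene names are the table's; of 24302 symbols, 25 that a spreadsheet had turned into dates (0.136% of FPKM) were left out. No coordinates of the files' build were used. Libraries were rescaled by the median ratio, log2(FPKM + 1) was fitted with limma 3.58.1 in R 4.3.3 (a mean per group, intensity trend, two-sided), and p was adjusted by Benjamini-Hochberg over 10327 genes; a gene was called under 0.05. The fit was tested on simulated data. Relative depth came from genes below 0.1 FPKM, whose ratios to control untreated library 1 were ratios of whole numbers up to 5 times a common step, within 0.1%, for 64.6% to 76.6% of genes. No interval for counting error was computed.

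The 12 comparisons were KO against control in each treatment, rosiglitazone against DMSO, IL4 and DMSO against untreated in each genotype, and the differences of the rosiglitazone and IL4 responses. The members, the pathway lists and the tests were chosen with earlier results of these data known. The fit without filter for Arg2 and Nos2, the lower pseudocount of 0.1 there and the fit without Ddx3y libraries were added after seeing the data. Besides the members, up to 3 genes per list and comparison with the smallest p among those called could be named, and the 5 most alike genes of 4 members. The labels do not tie library numbers to mice, so p-values measure the spread between these libraries. Under every treatment, Ddx3y had 16.3 to 20.5 FPKM in control number 1 and KO running number 2. It had at most 0.0287 FPKM in the other libraries. These numbers thus kept their Ddx3y state across treatments, as libraries of the same mouse would. Ddx3y cannot tell the remaining numbers apart, and the main fit does not use the number. Libraries of the same number deviated together, every pair with r above 0.1, in KO IL4 and untreated (r = 0.17 to 0.74), KO DMSO and untreated (0.19 to 0.742), and rosiglitazone and DMSO of both genotypes (0.207 to 0.758 in control and 0.433 to 0.788 in KO cells, where the running numbers match titles 1 to 3 to positions 2 to 4). Alternatives were other scalings, pseudocounts, filters, shared spreads, replicate blocks and left-out libraries.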

Additional observations from a re-analysis of the deposited data

Results flagged for a closer look

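Nos2 responded to IL4 differently in the genotypes, by 0.78 on the log2 scale (KO minus control), as given above with its test. After rescaling, Arg2 was higher with IL4 in all 4 control pairs and lower in all 4 KO pairs by library number. As deposited, KO number 3 went up instead, from 0.590 to 0.775 FPKM. The KO response did not pass (-0.15, limma adjusted p = 0.663). The difference of the Arg2 responses of -0.57 did not pass in the fit without a block by number. With the block by running numbers it passed (limma adjusted p = 0.00129), but not every pair of control IL4 and untreated libraries correlated (r = -0.199 to 0.518). A sample stood apart from the others of its group in 4 of 68 groups of 4 that were examined, and chance alone would mark about 1 in 20. These were control DMSO library 4, with 0.0196 FPKM of Nos2 where the others were listed at 0, KO untreated library 3, with 0.0095 FPKM of Nos2 where the others were listed at 0, control IL4 library 2, with 0.027 FPKM of Nos2 against 0.0332 to 0.0345, and control rosiglitazone library 3, with 1.4598 FPKM of Slc7a2 against 1.7549 to 1.8117. In steps of the lowest values the first 3 were 2, 1 and 2. In the first 2 the others were all at 0, where the rule marks any value above 0, so the rate of 1 in 20 does not hold there.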

How the results depend on the processing

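Counts of members called kept within 1.5 times of the value reported, with these exceptions. For KO against control cells, the 1 call became 0 in untreated and DMSO cells as deposited and 0 in untreated cells with only the groups compared in the fit. With IL4 it became 2 without the filter. The replicate block by running numbers gave 2 untreated, 2 under DMSO, 2 with rosiglitazone and 3 with IL4, and the block by title numbers 2 with rosiglitazone and 2 with IL4; control and KO mice are different animals, and the pairs of libraries across genotypes correlated from -0.208 to 0.583, so these numbers pair nothing there. For IL4 in KO cells the 4 calls became 2 with only the groups compared and 2 without the libraries of low sum. For the difference of the IL4 responses, 0 became 1 without the filter, which is Nos2. Leaving out 1 library at a time gave 0 to 1 calls untreated and under DMSO, 0 to 2 with rosiglitazone and 1 with IL4 for KO against control cells, 3 to 6 for IL4 in control cells and 2 to 5 in KO cells. Of 3720 single-gene values with 1 library left out, 13 lost and 10 gained a call, and of 1086 under other settings 14 lost and 21 gained one; none of them changed sign while called. The cause was not tested. The block by running numbers lost 0 of the 15 calls of members and gained 12 further ones among 120 values. In control IL4 and untreated cells, where not every pair correlated (r = -0.199 to 0.518), it gave Arg2 a rise of 0.42 ± 0.07 (limma adjusted p = 6.91e-05, and 0.0222 by title numbers), Odc1 0.24 ± 0.06 (0.00537) and Slc7a1 0.34 ± 0.09 (0.00387), and for Arg2 a difference of responses of -0.57 ± 0.09 (0.00129).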
